A study of Mus musculus with 5 samples.

Results

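Gabra2, Gabra3, Gabra4, Gabra5, Gabrb1, Gabrg1 and Gabrg3 encode subunits of the GABA-A receptor. They were taken by gene symbol from the feature list shared by 5 single-nucleus RNA libraries of the mouse paraventricular hypothalamus (PVH). They are 7 of the 31053 mouse genes in that list, and 7 of its 19 GABA-A subunit genes. No measured value was used to choose them, although earlier results of these libraries were known. All 7 were detected in every library and together took 0.430% of the UMIs (unique molecular identifiers, 1 per counted RNA molecule) of the saline library, 0.433% of the VPA library, 0.436% of the hM3 control, 0.376% of CNO replicate 1 and 0.370% of CNO replicate 2.

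GABA-A receptors are pentameric chloride channels opened by GABA, the main inhibitory transmitter of the brain. Most combine alpha and beta subunits, which form the GABA binding site, with a gamma subunit, which anchors the receptor at synapses and forms the benzodiazepine site together with alpha, or with a delta subunit, found in receptors outside synapses. Receptors with the subunits from Gabra4 and Gabrd carry tonic inhibition in thalamic relay neurons, and oxytocin neurons of the hypothalamus receive dense GABAergic input.

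The nuclei came from male mice on a C57BL6 background. The mice of the first experiment carried OT-Cre (Cre recombinase under oxytocin gene control) and the tdTomato reporter Rosa26tm9(CAG-tdTomato)Hze (Ai9); they had been exposed on gestation day 12.5 to saline (10 mL/kg to the dam) or to valproic acid (VPA, 500 mg/kg), and were sampled at 5 weeks. In the second, mice carrying OT-Cre and Rosa26dreaddm3 (stop-hM3, a Cre-dependent receptor activated by clozapine N-oxide, CNO) had all been exposed to VPA. As pups, on postnatal day 2, they were given saline (hM3 control) or CNO, and tissue was taken at an age of 5 to 7 weeks; AAV had been injected in the PVH and supraoptic region. Each library pooled nuclei of 2 to 4 mice and was sorted by DAPI staining of DNA, with large nuclei favoured. There was 1 library for each of the saline, VPA and hM3 control arms, and 2 for CNO. Genotype, virus and age differ between the experiments and cannot be told apart from arm across them.

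The libraries held 5513, 10904, 5279, 4440 and 6156 nuclei (saline, VPA, hM3 control, CNO replicate 1, CNO replicate 2, the order of all series of 5 values here), with 52506958 to 76243280 UMIs in all and a median of 3722.5 to 11913 UMIs per nucleus. After filtering, 4115 to 9824 nuclei per library remained. Library pairs shared 4 to 23 cell barcodes, 104 in all. Nuclei were clustered without any GABA-A subunit gene and named from marker genes. There were 384 oxytocin (OT)-like nuclei in 2 clusters, 3542 other nuclei of the Sim1 lineage that gives rise to PVH neurons, 2648 thalamus-type, 1419 other Slc17a6-rich (glutamatergic) and 9181 GABAergic-like nuclei. OT-like clusters were those with Oxt of at least 200 CPM (the UMI count scaled to a fixed library total), so their Oxt level of 567 to 1150 CPM is no check of the name. Gad2 stood at 232 to 330 CPM in GABAergic-like nuclei. Thalamus-type nuclei, a class that lies outside the labelled tissue, had Tcf7l2 at 406 to 731 CPM and Gad2 at 14.3 to 64.1 CPM. One thalamus-type cluster was mixed in its markers: it held 660 nuclei, 374 of them from CNO replicate 2, with Gad2 at 82.2, Slc17a6 at 76.9, Sim1 at 52.2 and Tcf7l2 at 374 CPM. The other Slc17a6-rich class holds the glutamatergic clusters that passed no other naming rule. One of its clusters, with 301 nuclei, had Sim1 at 248 and Otp at 39.3 CPM, above the 192 and 14.2 CPM of a cluster named as Sim1-lineage. A GABAergic-like cluster of 759 nuclei, 288 of them from CNO replicate 2, had Gad2 at 196, Sim1 at 54.7 and Slc17a6 at 41.6 CPM. Some results of these 3 classes are also given without these clusters, alternatives chosen after the data were seen. Leaving out the GABAergic-like cluster changed no call of the 7 genes and no direction of a mean ratio in GABAergic-like nuclei. Another 6 neuron clusters were set aside, with 353, 529, 321, 186 and 202 nuclei. Their leading genes held more markers of another cell type than of their own, or at least 2 leading genes of a non-neuronal cluster. One of them, with 396 nuclei, Sim1 at 318 and Gad2 at 29 CPM, had the mural marker Abcc9 among its leading genes. An OT-like cluster that was kept shared that gene. The summed level of 8 astrocyte markers was 268 to 514 CPM in thalamus-type nuclei and 39.5 to 121 CPM in OT-like and other Sim1-lineage nuclei, and in CNO replicate 2 the 7 oligodendrocyte markers reached 145 CPM in neuron-like nuclei against 50.2 to 84.6 CPM in the other 4 libraries. The part of this RNA in the results was not tested.

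Most of the 7 genes lie in 2 clusters of GABA-A genes. On chromosome 5 (mm10) Gabrg1 spans 70751047 to 70842617 and Gabra2 spans 70957597 to 71095849, both on the minus strand and separated by 114979 bases. Gabra4 spans 71569749 to 71658308 on the minus strand, and Gabrb1 spans 71658113 to 72149037 on the plus strand, so that their starts overlap by 196 bases. On chromosome 7 Gabrg3 spans 56716465 to 57387188 and Gabra5 spans 57407672 to 57510059, both on the minus strand and separated by 20483 bases; Gabra5 overlaps the antisense gene Gm9962 by 2270 bases. Gabra3 lies on chromosome X from 72432681 to 72656848 on the minus strand. Exons make up 1.75% (Gabra3) to 8.59% (Gabrg1) of the gene length. Whether the authors counted intronic reads or used strand is not given in the sources used here, so that counts of genes that overlap others, Gabra5 among them, may hold reads of the partner.

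Promoter windows from RefSeq (GRCm38.p6, 250 bases before to 50 after the annotated start, on the strand of the gene) were matched for all 7 genes, 9 windows in all. The windows below belong to the head-to-head pair Gabra4 and Gabrb1, whose levels differed in pattern across neuron types, to the neighbours Gabra2 and Gabrg1, whose levels were alike across neuron clusters, and to Gabrg3, whose window also holds the start of the antisense gene Gm9962. Capitals mark matches to the motifs searched on both strands.
Gabra4 (chr5:71658259-71658558, minus): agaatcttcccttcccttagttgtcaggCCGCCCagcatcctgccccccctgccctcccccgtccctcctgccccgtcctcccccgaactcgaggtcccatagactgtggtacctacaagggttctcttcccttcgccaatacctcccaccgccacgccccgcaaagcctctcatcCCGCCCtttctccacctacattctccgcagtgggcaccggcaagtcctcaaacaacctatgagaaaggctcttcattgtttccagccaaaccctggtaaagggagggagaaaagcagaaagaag
Gabrb1 (chr5:71657671-71657970, plus): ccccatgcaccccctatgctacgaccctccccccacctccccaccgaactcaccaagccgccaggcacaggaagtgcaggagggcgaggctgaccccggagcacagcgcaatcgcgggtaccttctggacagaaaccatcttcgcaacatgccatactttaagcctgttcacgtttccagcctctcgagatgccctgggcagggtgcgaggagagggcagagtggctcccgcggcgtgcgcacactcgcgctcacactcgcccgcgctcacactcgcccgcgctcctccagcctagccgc
Gabra2 (chr5:71095800-71096099, minus): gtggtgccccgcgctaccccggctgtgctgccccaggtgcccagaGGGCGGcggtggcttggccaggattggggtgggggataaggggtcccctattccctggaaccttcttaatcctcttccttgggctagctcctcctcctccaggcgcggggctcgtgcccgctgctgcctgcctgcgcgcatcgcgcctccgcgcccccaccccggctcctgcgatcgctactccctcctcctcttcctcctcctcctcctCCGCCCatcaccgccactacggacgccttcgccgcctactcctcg
Gabrg1 (chr5:70842568-70842867, minus): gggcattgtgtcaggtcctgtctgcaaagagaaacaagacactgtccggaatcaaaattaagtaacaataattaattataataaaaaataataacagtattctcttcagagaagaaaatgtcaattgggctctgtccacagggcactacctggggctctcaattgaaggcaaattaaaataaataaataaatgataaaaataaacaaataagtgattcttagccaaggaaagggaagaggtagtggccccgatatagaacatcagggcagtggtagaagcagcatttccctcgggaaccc
Gabrg3 (chr7:57387166-57387465, minus): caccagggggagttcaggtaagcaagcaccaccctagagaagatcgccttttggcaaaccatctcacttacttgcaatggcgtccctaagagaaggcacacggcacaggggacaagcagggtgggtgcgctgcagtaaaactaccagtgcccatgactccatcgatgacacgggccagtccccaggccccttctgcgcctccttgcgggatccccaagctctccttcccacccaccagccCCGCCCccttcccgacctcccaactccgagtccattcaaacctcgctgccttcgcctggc
The GC box GGGCGG (reverse complement CCGCCC), the only motif marked in these 5, was present in the windows of Gabra2, Gabra4 and Gabrg3 and in 35.7% of 32851 promoters. The TCF/LEF core CTTTGA (16.0% of promoters) and the TATA box TATAAA (13.6%) were present in both Gabra3 windows and in no other window of the 7 genes, and the cyclic AMP response element TGACGTCA (1.79%) was in none. CG dinucleotides numbered 25 in the windows of Gabra2 and Gabrb1 shown, 13 in Gabrg3, 12 in Gabra4 and 3 in Gabrg1, against a median of 7 over all promoters.

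Among neuron types, Gabra4 stood out by its range. In thalamus-type nuclei its level was 337, 255, 266, 399 and 205 CPM in the 5 libraries. In other Sim1-lineage nuclei it was 56.9, 62.1, 68.8, 67.6 and 57.6 CPM, and in GABAergic-like nuclei 53.3, 56.7, 61.9, 61.9 and 48.7 CPM. OT-like nuclei were lowest, with 35.6, 28.0, 33.3, 19.8 and 31.2 CPM, close to the 31.3 to 55.8 CPM of other Slc17a6-rich nuclei. Single clusters outside the OT-like class were lower still, as given with the OT-like comparison below. The thalamus-type values did not overlap those of any other neuron type, and the OT-like values did not overlap those of the other Sim1-lineage or the GABAergic-like nuclei. With every nucleus thinned to 2000 UMIs, 39.2% ± 7.5 (SD over 5 libraries) of thalamus-type nuclei had a Gabra4 UMI, against 5.67% of OT-like and 1.16% of oligodendrocyte-like nuclei, which served as a measure of free RNA; the 130 microglia-like nuclei deep enough for thinning ranged from 0 to 40.0% between libraries. Without thinning the shares were 88.2%, 28.1% and 1.99%, at median depths per library of 9018 to 26457.5 UMIs in thalamus-type, 8465 to 21461.5 in OT-like and 1717.5 to 3729 in oligodendrocyte-like nuclei.

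The other alpha subunit genes varied less between the neuron types. Gabra2, which encodes the alpha subunit of many forebrain synapses, had a mean of 685 ± 70.4 CPM (SD, n = 5 libraries) in OT-like, 640 ± 66.7 in other Sim1-lineage, 572 ± 35.7 in other Slc17a6-rich, 542 ± 59.2 in GABAergic-like and 497 ± 76.5 CPM in thalamus-type nuclei. The ranges of neighbours in that order overlapped. Gabra3 was highest in GABAergic-like nuclei, at 199, 196, 196, 163 and 178 CPM, and lowest in OT-like nuclei, at 124, 98.3, 123, 105 and 101.1 CPM, and these ranges did not overlap. Gabra5, whose receptors are known for tonic inhibition in the hippocampus, was at 43.7 ± 5.1 CPM in other Sim1-lineage, 52.5 ± 8.8 in OT-like, 63.8 ± 10.6 in thalamus-type, 66.7 ± 4.4 in GABAergic-like and 67.3 ± 30.2 CPM in other Slc17a6-rich nuclei, the last with 110 CPM in CNO replicate 1 and 44.3 CPM in saline.

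Gabrb1 was the most even of the 7 across neurons and was highest in astrocytes. Its level in OT-like nuclei was 1545, 1436, 1476, 1678 and 1367 CPM, and the means of the other 4 neuron types lay between 1644 and 1744 CPM. Astrocyte-like nuclei held 3905, 3082, 3165, 3083 and 2982 CPM, above every neuron type in every library. Of the gamma subunit genes, Gabrg1 was highest in GABAergic-like nuclei, at 168, 202, 176, 148 and 111 CPM, with overlapping values of 112 to 158 CPM in other Sim1-lineage and 74.8 to 112 CPM in thalamus-type nuclei. Gabrg3 was lowest in OT-like nuclei, at 906, 864, 1092, 781 and 1123 CPM. Other Sim1-lineage nuclei held 1389, 1429, 1428, 1442 and 1440 CPM, above every OT-like value. GABAergic-like nuclei held 2037, 1978, 1886, 1641 and 1710 CPM and thalamus-type nuclei 1949, 1866, 1906, 1455 and 1622 CPM, which overlapped.

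**Figure D1:**
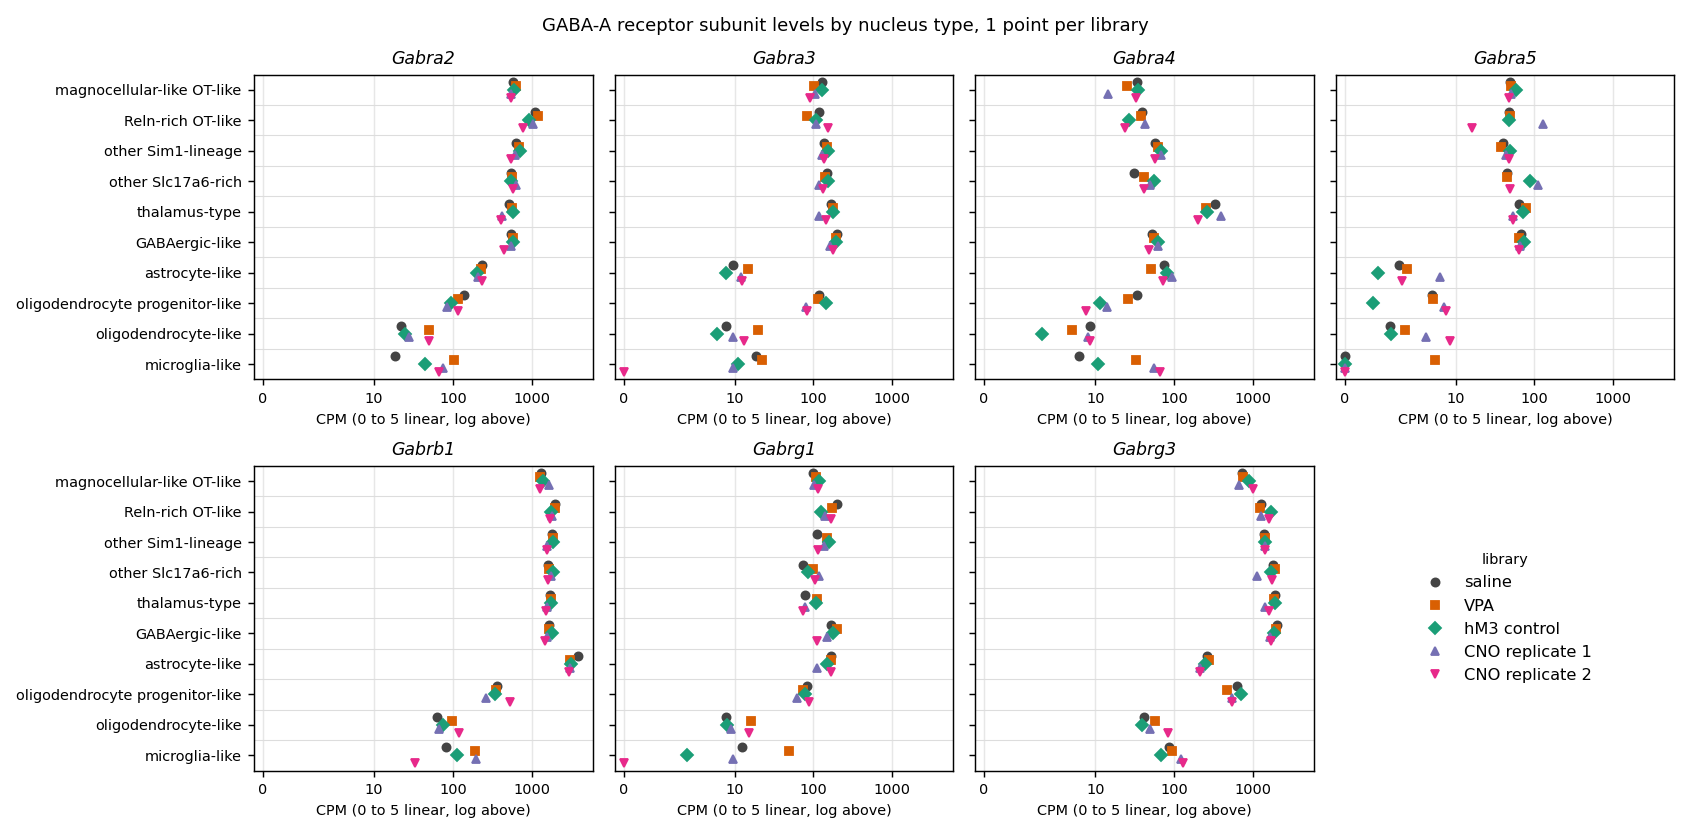
Level of each of the 7 subunit genes (x axis, CPM of summed UMIs, linear from 0 to 5 and logarithmic above) in 10 nucleus types (y axis), with 1 point per library and the 5 libraries in different colours and symbols. Gabra4 lies at 205 to 399 CPM in thalamus-type nuclei against 14.6 to 68.8 CPM in the 5 other neuron types shown, and Gabrb1 lies at 2982 to 3905 CPM in astrocyte-like nuclei.

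The types were compared with edgeR's quasi-likelihood test on UMI sums per library and type, with the library as a block and p-values adjusted by Benjamini-Hochberg over all genes tested. A gene was called at an adjusted p under 0.05 and at least a 2-fold difference. The p-values measure the spread between these 5 libraries of pooled mice, which come from different arms. Thalamus-type nuclei were compared with the remaining Slc17a6-rich neurons, Sim1-lineage ones included. Gabra4 was 2.63 ± 0.14 (SE) higher on the log2 scale (292 against 54.3 CPM, higher in 5 of 5 libraries, adjusted p = 1.97e-06) and was the 1 gene of the 7 called; 11.3% of the 15577 genes tested were called, 5.62% higher and 5.64% lower. Gabrg3 was 0.53 ± 0.07 higher (adjusted p = 2.84e-04) and Gabra3 was 0.41 ± 0.06 higher (adjusted p = 5.07e-04), both under 2-fold. Gabra5 was 0.52 ± 0.18 higher (adjusted p = 0.0504), Gabra2 differed by -0.12 ± 0.06 (adjusted p = 0.143) and Gabrg1 by -0.19 ± 0.07 (adjusted p = 0.0408). For Gabrb1 the direction depended on the scaling: 0.18 with TMM scaling and -0.05 on library totals, where its CPM was lower in 5 of 5 libraries. TMM shifted the differences by 0.22 in this comparison. The median log2 difference of the 7 was 0.41. Among 8 measured of the 12 other subunit genes, Gabrd, the delta subunit, rose by 6.29 ± 0.25 (17.1 against 0.289 CPM, adjusted p = 3.36e-07) and Gabrb2 by 1.13 ± 0.08 (adjusted p = 6.59e-06), while Gabre fell by 1.86 and Gabrq fell by 1.76, both at levels of 10 CPM or below.

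GABAergic-like nuclei were set against all Slc17a6-rich neurons, thalamus-type included. Gabra4 fell by 1.58 ± 0.14 on the log2 scale (56.5 against 167 CPM, lower in 5 of 5 libraries, adjusted p = 9.14e-05) and was the only gene of the 7 called, with 4.67% of 17031 genes called, 1.32% higher and 3.36% lower. The thalamus-type nuclei carried the high side of this difference: without them the Slc17a6-rich neurons held 54.3 CPM. Gabrg1 was 0.55 ± 0.06 higher in GABAergic-like nuclei (161 against 105 CPM, adjusted p = 2.03e-04), Gabra3 was 0.30 ± 0.03 higher (adjusted p = 2.35e-04) and Gabrg3 was 0.18 ± 0.04 higher (adjusted p = 0.0152), all under 2-fold and all in 5 of 5 libraries. Gabra2 differed by -0.11 (adjusted p = 0.0582), Gabra5 by 0.18 (adjusted p = 0.0679) and Gabrb1 by -0.11 (adjusted p = 0.0489).

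OT-like nuclei were set against the other Sim1-lineage nuclei. A cluster of 396 nuclei with Reln among its leading genes had been set aside and is not in that comparison. Gabra4 fell by 1.03 ± 0.12 (29.6 against 62.6 CPM, lower in 5 of 5 libraries, adjusted p = 1.93e-06), the only call among the 7, with 6.97% of 11699 genes called, 2.96% higher and 4.02% lower. It lay at the 2-fold limit: the difference was -0.98 without the VPA library, -0.96 without CNO replicate 1 and -0.86 with the set-aside clusters kept, each in the same direction and under 2-fold. Gabrg3 differed by -0.60 ± 0.08 (953 against 1426 CPM, adjusted p = 4.55e-06) and Gabra3 by -0.36 ± 0.08 (adjusted p = 0.00245), both lower in 5 of 5 libraries. Gabra2, Gabra5, Gabrb1 and Gabrg1 differed by at most 0.25. None of the 5 other subunit genes measured was called. Low Gabra4 was not particular to OT-like nuclei. Over all nuclei of a cluster, the 2 OT-like clusters held 30.5 and 34.2 CPM, and the set-aside cluster of 396 nuclei held 19.3 CPM. A Sim1-lineage cluster of 299 nuclei led by Gm43154 held 26.1 CPM, and the remaining Sim1-lineage clusters held 38.0 CPM or more.

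Astrocyte-like nuclei were set against all neuron-like nuclei. Of the 7 genes, 4 fell and 3 were not called, where 42.8% of 16643 genes were called, 23.5% lower and 19.2% higher. Gabra5 fell by 4.27 ± 0.18 (3.62 against 61.1 CPM), Gabra3 by 3.96 ± 0.14 (11.2 against 164 CPM), Gabrg3 by 2.84 ± 0.09 (244 against 1699 CPM) and Gabra2 by 1.36 ± 0.09 (221 against 556 CPM), with adjusted p between 6.06e-11 and 5.28e-08. Gabrb1 was 0.91 ± 0.09 higher (3244 against 1677 CPM, adjusted p = 2.10e-06), under 2-fold, and Gabrg1 differed by 0.19 ± 0.13 (153 against 133 CPM, adjusted p = 0.202). Gabra4 differed by -0.65 ± 0.09 (adjusted p = 4.90e-05). Of the 8 other subunit genes measured, 7 fell, among them Gabrb2 by 3.64, and Gabrr2, a rho subunit of low level here, rose by 1.26.

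**Figure D2:**
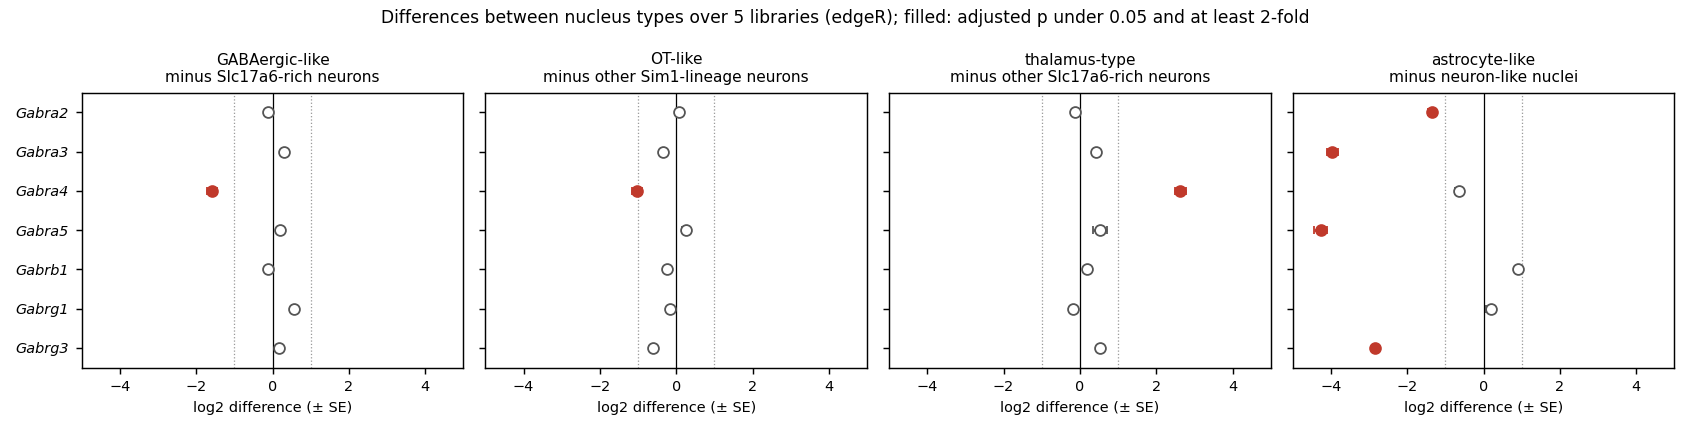
Log2 difference of each subunit gene (x axis, point, with the standard error as a bar) in the 4 comparisons of nucleus types over 5 libraries; filled red points were called (adjusted p under 0.05 and at least 2-fold, the dotted lines). Gabra4 is the 1 called gene in each of the 3 comparisons between neuron types, higher by 2.63 in thalamus-type nuclei, lower by 1.58 in GABAergic-like and lower by 1.03 in OT-like nuclei, and Gabra2, Gabra3, Gabra5 and Gabrg3 are called lower in astrocyte-like nuclei.

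Genes that work with the receptor were read from lists whose members, unlike the subunit genes, were free to enter the clustering, so that their counts describe the types. Of 21 measured partners in anchoring and trafficking, 1 fell in GABAergic-like nuclei (Mdga1, a neuroligin-binding membrane protein), 1 rose (Plcl1) and 1 fell (Mdga1) in OT-like nuclei, and 2 rose (Slitrk3 and Shisa9) and 2 fell (Hap1 and Mdga1) in thalamus-type nuclei. In astrocyte-like nuclei 2 rose (Trak1 and Gabarap) and 6 fell. Of all genes tested, 4.67% were called in the GABAergic-like, 6.97% in the OT-like, 11.3% in the thalamus-type and 42.8% in the astrocyte-like comparison. These shares stand beside every count of this paragraph, and no list was tested against them. Of 12 measured genes of GABA synthesis, transport and GABA-B receptors, the synthesis genes Gad1 and Gad2 and the vesicular transporter Slc32a1 rose in GABAergic-like nuclei, where they also served to name the type. Gabbr2, a GABA-B receptor subunit, rose in thalamus-type nuclei. In astrocyte-like nuclei 4 rose, among them the GABA transporter Slc6a11 and the GABA transaminase Abat, and 4 fell. Of 10 measured in the OT comparison, Kctd16, an auxiliary GABA-B subunit, fell. Of 2 measured neurosteroid genes, Tspo fell in thalamus-type and rose in astrocyte-like nuclei.

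Finer neuron clusters showed patterns that the broad types average out. Over 56 neuron clusters of at least 50 nuclei, 5 set-aside clusters included, Gabra4 ranged 27.8-fold, from 19.8 to 551 CPM, and Gabrb1 2.97-fold, from 918 to 2723 CPM. Gabrg1 ranged 16.3-fold, Gabra5 13.3-fold, Gabrg3 12.7-fold, Gabra3 6.74-fold and Gabra2 5.26-fold. The Gabra4 maximum was a Prkcd-rich thalamus-type cluster, with 621 and 547 CPM in the saline and hM3 control libraries and 645 and 389 CPM in the CNO libraries; its 2 VPA nuclei were too few for a value. The same cluster held the lowest Gabra2 level of the 56 (200 CPM as a mean over 4 libraries). In the largest thalamus-type cluster Gabra4 was at 416, 371, 429, 407 and 314 CPM, and in the other 3 at means of 178, 199 and 242 CPM.

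Gabrg3 was low in a few clusters. In the cluster led by Tns1, Agtr1a (an angiotensin receptor gene) and Ppp1r17 its level was 99.0, 186, 307 and 239 CPM in the libraries other than CNO replicate 1, where Sim1-lineage nuclei as a whole held 1389 CPM or more. That cluster also had the highest Gabra2 (1052 CPM, with a Sim2-rich cluster at 1048) and Gabrb1 (2723 CPM) and the lowest Gabra3 (41.4 CPM) means of the 56. An Avp-rich cluster (vasopressin) held 216, 311, 535, 485 and 588 CPM of Gabrg3, and the magnocellular-like OT cluster 727, 760.0, 910.4, 665 and 1015 CPM. The cluster with the most Gabrg3 and the cluster with the least Gabrg1 depended on the weighting, as did both the highest and the lowest Gabra5 cluster and the lowest Gabra4 cluster. As a mean over libraries a Pvalb- and Eepd1-rich GABAergic-like cluster held the most Gabrg3 (2637 CPM) and the least Gabrg1 (29.5 CPM), but 3 of its libraries had 6, 7 and 13 nuclei. Over all its nuclei together the values were 2215 and 46.6 CPM; on that measure GABAergic-like clusters led by Atp8b1 and by Pdgfd held more Gabrg3 (2585 and 2553 CPM), and the Prkcd-rich cluster had the least Gabrg1 (24.0 CPM). Gabrg1 was highest in an Nr5a2-rich GABAergic-like cluster (446, 501, 483, 499.7 and 476 CPM, from 31, 114, 16, 5 and 8 nuclei), where Gabrg3 was at a mean of 459 CPM, followed by GABAergic-like nuclei rich in Bnc2 and Cyp19a1 (425 CPM) and Sim1-lineage nuclei rich in Sim2 and Col6a5 (382, 381, 356, 373 and 334 CPM).

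**Figure D3:**
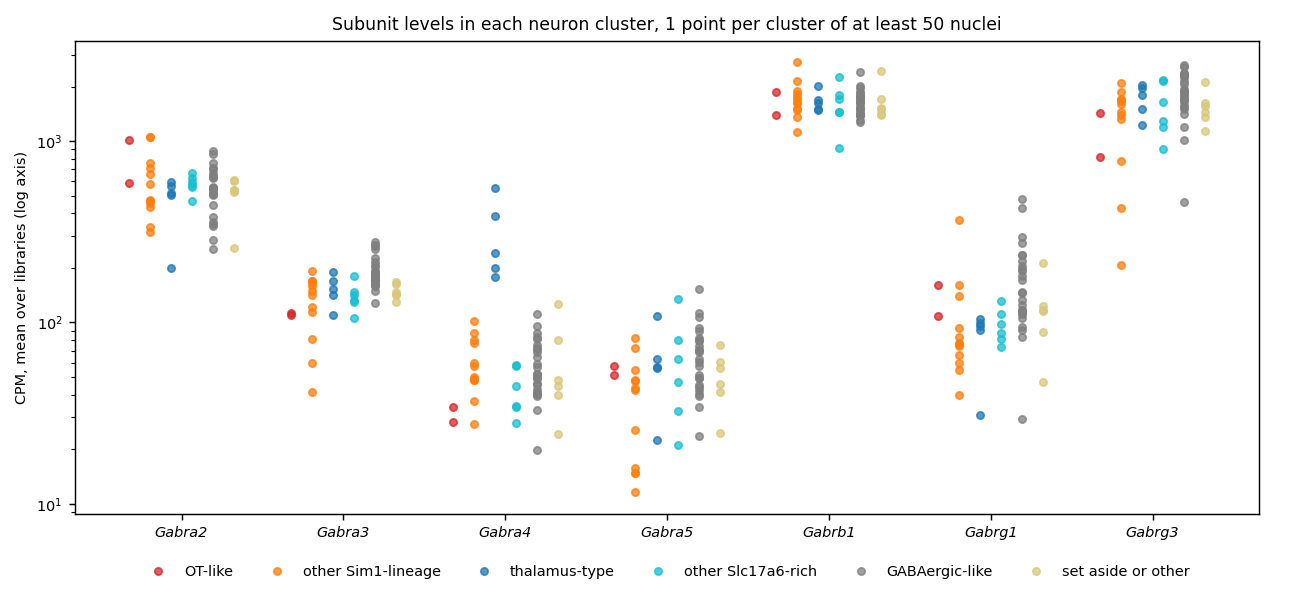
Level of each subunit gene (y axis, mean CPM over libraries, logarithmic) in each of 56 neuron clusters of at least 50 nuclei, 1 point per cluster, coloured by neuron type. The 5 thalamus-type clusters hold 178 to 551 CPM of Gabra4, and Gabrb1 stays within 918 to 2723 CPM.

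Likeness of pattern was measured by Pearson's r of log2(CPM + 10) over the 56 clusters among 10000 genes, as a description; the clusters share the 5 libraries. The gene most like Gabra2 was Gabrg1 (r = 0.69), its neighbour 114979 bases away, and the relation was mutual. For Gabrg3 it was Gm9962 (r = 0.80), whose annotated start lies 83 bases from that of Gabrg3. Gabra5 was alike to Pgm2l1 (0.59) and Pitpnm3 (0.58). Gabra4 was most like Grid2ip (r = 0.83), Nin (0.83) and Mrvi1 (0.81), and Gabra3 most like Ltbp3 (0.69). The highest r for Gabrb1 was 0.63, with Agfg2. The head-to-head pair Gabra4 and Gabrb1 reached 0.31, and Gabra4 and Gabrg3 0.00078, while Gabra5 and Gabrg3, neighbours on chromosome 7, reached 0.55.

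The 2 OT-like clusters, named by their level of Reln (reelin) alone, differed in subunit levels. The one with Reln below the mean of the neuron clusters was called magnocellular-like, and no magnocellular marker was used to tell them apart. Avp, such a marker, was at 18.7 CPM in it and at 21.7 CPM in the Reln-rich cluster. Gabra2 was at 572, 641, 606, 549 and 553 CPM in the magnocellular-like and 1111, 1217, 938, 1044 and 770.2 CPM in the Reln-rich nuclei. Gabrg3 was at 665 to 1015 CPM in the former and 1252 to 1694 CPM in the latter. Of the 7 genes, 4 had ranges over the 5 libraries that did not overlap, Gabra2, Gabrb1, Gabrg1 and Gabrg3, all higher in the Reln-rich nuclei, with ratios of means of 1.74, 1.34, 1.48 and 1.75; 10.1% of 6800 genes had ranges that did not overlap. Gabra3 (ratio 1.03), Gabra4 (1.21) and Gabra5 (1.12) overlapped. The Reln-rich cluster held 28, 31, 21, 5 and 18 nuclei, so that its CNO values rest on few nuclei.

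Among glia, oligodendrocyte progenitor-like nuclei kept Gabra3 and Gabrg3. Gabra3 was at 119, 114, 145, 81.1 and 84.0 CPM there, against 7.77 to 14.7 CPM in astrocyte-like nuclei. Gabrg3 was at 638, 473, 722, 539 and 542 CPM in the progenitors and 39.1 to 83.5 CPM in oligodendrocyte-like nuclei, and the ranges did not overlap. Gabrg1 was at 165, 169, 150, 112 and 168 CPM in astrocyte-like nuclei and 7.83 to 16.3 CPM in oligodendrocyte-like nuclei. After thinning to 2000 UMIs, 25.5% ± 3.0 of astrocyte-like nuclei had a Gabrg1 UMI against 1.38% of oligodendrocyte-like and 1.24% of microglia-like nuclei; the unthinned shares were 34.5%, 2.89% and 2.88%. Gabrb1 was detected in 97.2% of thinned astrocyte-like nuclei, 13.7% of oligodendrocyte-like and 9.98% of microglia-like nuclei. The median depth of astrocyte-like nuclei was 1854 to 4386.5 UMIs per library, and thinning left out 1482 of 4793. A share near that of oligodendrocyte-like nuclei cannot be told apart from free RNA; Gabra5 in astrocyte-like nuclei (1.89 to 6.23 CPM) lay at the 2.61 to 8.54 CPM of oligodendrocyte-like nuclei.

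The first experiment asked what prenatal VPA leaves in the PVH at 5 weeks of age. With 1 library in each arm no test across animals was possible, and the intervals given are exact 95% intervals of counting error only. In all neuron-like nuclei Gabra4 was at 121 CPM in saline and 79.9 CPM in VPA, a log2 ratio of -0.60 (-0.66 to -0.54). Gabrg1 was at 124 CPM in saline and 168 CPM in VPA, a log2 ratio of 0.45 (0.40 to 0.49). The other 5 genes had ratios of at most 0.10 in size. Gabra4 was the 1 gene of the 7 past 1.5-fold; 1.79% of 6438 genes were. The median of all genes was 0.05, and -0.03 with TMM scaling; in thalamus-type nuclei it went from 0.05 to -0.07. With TMM scaling the small ratios of Gabra3, Gabra5 and Gabrg3 in neuron-like nuclei turned negative. So did those of Gabra2 and Gabra5 in OT-like and other Slc17a6-rich nuclei, and of Gabra3 and Gabrb1 in thalamus-type nuclei. The ratios of Gabrb1 in other Sim1-lineage and GABAergic-like nuclei and of Gabrg1 in astrocyte-like nuclei turned negative too.

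The mix of neuron types also differed between the 2 libraries, and its part in the Gabra4 ratio was not tested. Thalamus-type nuclei, where it is highest, numbered 573 of 3430 neuron-like nuclei in saline and 577 of 6888 in VPA, and the Prkcd-rich cluster held 42 saline and 2 VPA nuclei. With equal weight for each neuron cluster the log2 ratio was 0.06. Within types it was -0.40 (-0.49 to -0.32) in thalamus-type, 0.41 (0.05 to 0.76) in other Slc17a6-rich, 0.12 (-0.03 to 0.28) in other Sim1-lineage, 0.09 (-0.03 to 0.21) in GABAergic-like and -0.35 (-1.0 to 0.29) in OT-like nuclei. In the 4 thalamus-type clusters with at least 20 nuclei in each library it was -0.16, -0.13, -0.01 and -0.35, and over 41 neuron clusters Gabra4 was higher in VPA in 20. On library totals no gene of the 7 passed 1.5-fold in any of the 5 neuron types, nor did any of the 5 measured in astrocyte-like nuclei, where 7.96% of genes did in OT-like, 1.71% in other Sim1-lineage, 4.13% in thalamus-type, 3.33% in other Slc17a6-rich, 1.33% in GABAergic-like and 7.22% in astrocyte-like nuclei. Gabra3, under 20 CPM in astrocyte-like nuclei and so not measured, had 24 and 33 UMIs there and a ratio of 0.64 (-0.16 to 1.47).

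Gabrg1 was higher in the VPA library in 4 of 5 neuron types. Its log2 ratio was 0.50 (0.36 to 0.65) in thalamus-type, 0.41 (0.31 to 0.51) in other Sim1-lineage, 0.41 (0.19 to 0.64) in other Slc17a6-rich and 0.27 (0.21 to 0.33) in GABAergic-like nuclei. In OT-like nuclei it was -0.11 (-0.42 to 0.20) and in astrocyte-like nuclei 0.03 (-0.18 to 0.23). Within clusters it was higher in 31 of 41, with a median of 0.19, where the median gene stood at 0.02 and 19.8% of 6231 genes had a median as far from 0. The interval lay above 0 in 11 clusters, among them all but 1 of the thalamus-type clusters compared, and below 0 in 2. The cluster mix changed here too: the Gabrg1-rich Sim2 cluster held 90 saline and 267 VPA nuclei, and with equal weight for each cluster the ratio was 0.07 in all neuron-like nuclei, -0.07 in other Sim1-lineage and 0.36 in thalamus-type nuclei.

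In OT-like nuclei (88 saline and 134 VPA) the counts were small for most of the 7. Gabrg3 was at 906 and 864 CPM, a ratio of -0.07 (-0.19 to 0.05), and Gabra2 at 744 and 762 CPM, a ratio of 0.03 (-0.09 to 0.16). Gabra3 was at 124 and 98.3 CPM, a ratio of -0.34 (-0.68 to -0.01), where 26.3% of genes were as far from 0. In astrocyte-like nuclei Gabrb1 was at 3905 CPM in saline and 3082 CPM in VPA (-0.34, -0.39 to -0.30), and the saline library stood above all 4 others in this type. Markers moved with it: Slc1a2 went from 3651 to 2935 CPM and Aqp4 from 203 to 120 CPM, while the summed level of 7 neuron markers went from 1201 to 1695 CPM and Gad2 from 14.1 to 35.7 CPM. Their part in the result was not tested. Within the cluster that held nearly all astrocyte-like nuclei of both libraries (669 and 1088) the Gabrb1 ratio was also -0.34. In the astrocyte-like nuclei as a whole Gabra4 was at 75.7 and 50.8 CPM (-0.57, -0.92 to -0.23); with TMM scaling the ratio was -0.64, past 1.5-fold.

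The other glial and vascular types had few nuclei or few UMIs of these genes, and the background was high. In the VPA library none of the 6 genes measured in oligodendrocyte progenitor-like nuclei passed 1.5-fold, where 16.3% of genes did. Of 3 measured in oligodendrocyte-like nuclei (303 saline and 529 VPA), 2 were higher, where 13.5% of genes passed: Gabra2, with 25 and 58 UMIs, at 1.19 (0.49 to 1.93), and Gabrb1, with 73 and 112 UMIs, at 0.60 (0.16 to 1.04). Both levels, 21.7 to 96.0 CPM, lie in the type that served as the measure of free RNA, and the neuron marker Rbfox3 there went from 2.61 to 18.9 CPM; its part in these ratios was not tested. In microglia-like nuclei Gabra2, Gabrb1 and Gabrg1 were higher (3 of 5 measured, 39.0% of genes passing), and in committed oligodendrocyte progenitor-like nuclei Gabra2 and Gabrg1 were higher and Gabra3 lower (of 5, 34.9%). With 8 to 22 nuclei in each library, 5 of 7 passed in endothelial-like (53.5% of genes), 5 of 7 in ependymal-like (73.3%) and, with 14 and 9 nuclei, 5 of 5 in vascular leptomeningeal-like nuclei (74.8%).

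**Figure D4:**
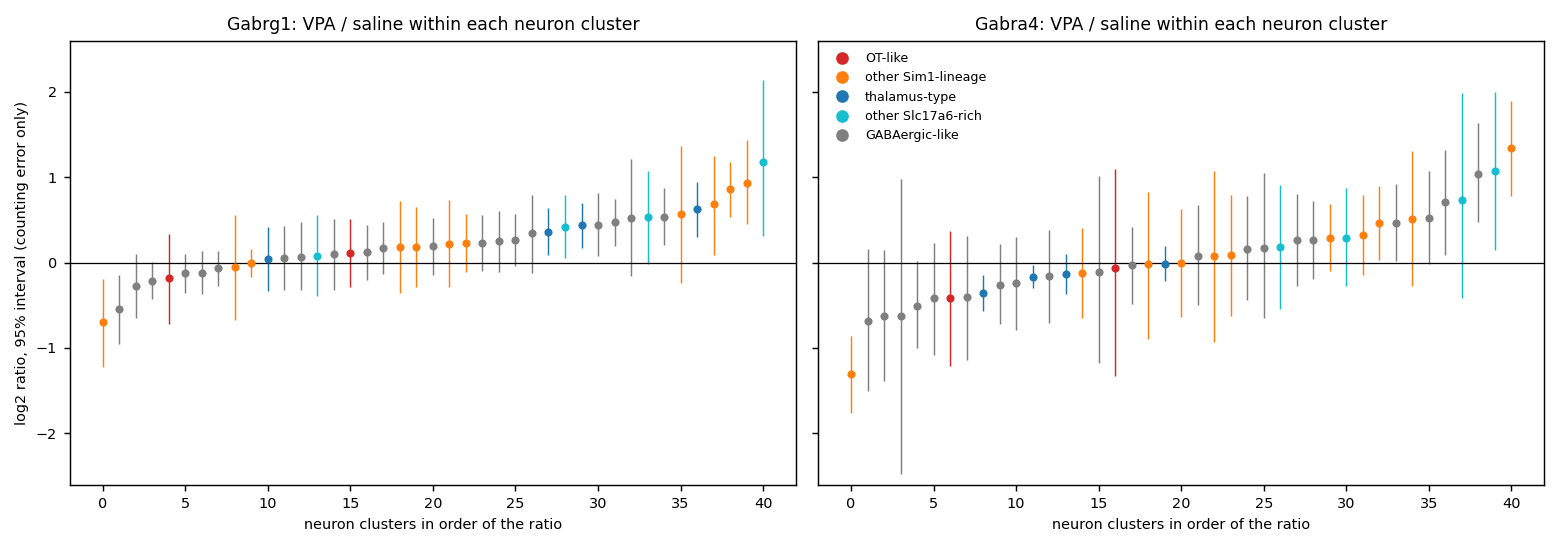
Log2 ratio of VPA to saline (y axis, 95% interval of counting error as a bar) for Gabrg1 (left) and Gabra4 (right) within each of 41 neuron clusters with at least 20 nuclei in both libraries, in order of the ratio and coloured by neuron type. Gabrg1 is above 0 in 31 clusters and Gabra4 in 20.

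The second experiment asked what CNO on postnatal day 2 changes in VPA-exposed hM3 mice. Each CNO library was set against the single hM3 control, so the 2 ratios share that control. In neuron-like nuclei Gabra4 was at 98.9 CPM in the control and at 145 and 132 CPM with CNO, log2 ratios of 0.55 and 0.42. Gabrg1 was at 154, 125 and 93.5 CPM, log2 ratios of -0.29 and -0.72. No gene of the 7 passed 1.5-fold in both CNO libraries in neuron-like nuclei, where 1.02% of 6653 genes did. None did so in OT-like (3.44% of genes), other Sim1-lineage (1.11%), thalamus-type (1.41%), other Slc17a6-rich (2.53%), GABAergic-like (0.612%) or, of the 5 measured there, in astrocyte-like nuclei (3.67%). Gabra3 and Gabra5 lay under 20 CPM in astrocyte-like nuclei and were not measured; on 9 to 45 UMIs per library their ratios, 0.61 and 0.66 for Gabra3 and 1.72 and 0.79 for Gabra5, were past 1.5-fold. Leaving out the mixed thalamus-type cluster changed 1 of these: Gabrg1 in thalamus-type nuclei was then at 105.5 CPM in the control and at 65.6 and 59.4 CPM with CNO, ratios of -0.68 (-0.85 to -0.52) and -0.83 (-1.03 to -0.63), both past 1.5-fold, where 3.99% of 6218 genes passed. In all neuron-like nuclei the other 5 genes were lower in both libraries, with ratios of -0.18 and -0.42 for Gabra2, -0.34 and -0.24 for Gabra3, -0.09 and -0.32 for Gabra5, -0.19 and -0.25 for Gabrb1 and -0.24 and -0.13 for Gabrg3. TMM scaling lowered the CNO ratios: in neuron-like nuclei it moved the median of all genes from -0.01 to -0.11 with CNO. The directions of these 7 genes in neuron-like nuclei held under it.

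The astrocyte-like class came from different clusters in the libraries. One of its 2 clusters held 1405 of the 1576 astrocyte-like nuclei of CNO replicate 2, but 163 of 1032 in the hM3 control and 96 of 376 in CNO replicate 1. Within that cluster Gabrb1 was at 3076 CPM in the control and 2710 and 2898 CPM with CNO, ratios of -0.18 (-0.28 to -0.08) and -0.09 (-0.15 to -0.02). Within the other its ratios were 0.01 (-0.04 to 0.06) and 0.11 (0.04 to 0.18). No measured gene of the 7 passed 1.5-fold in both CNO libraries within either cluster. The share of all genes that did so within a cluster was not counted.

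The neuron mix differed between these libraries too, and its part in the ratios was not tested. Thalamus-type nuclei were 333 of 2643 neuron-like nuclei in the control against 388 of 2309 and 777 of 1996 with CNO, and the Prkcd-rich cluster held 9, 95 and 125. Within thalamus-type nuclei the 2 CNO libraries disagreed, at 0.59 (0.52 to 0.66) and -0.37 (-0.45 to -0.30), and with equal weight for each cluster the mean ratio was -0.11 in neuron-like and -0.12 in thalamus-type nuclei. In neuron-like nuclei the same weighting took the mean ratio of Gabrg1 from -0.51 to -0.13 and that of Gabra2 from -0.30 to -0.14. Gabra2, Gabra5 and Gabrg1, which are low in the Prkcd-rich cluster, had mean ratios of -0.48, -0.42 and -0.51 in thalamus-type nuclei over the CNO libraries, and of -0.23, -0.08 and -0.35 with equal weight for each cluster. Without the mixed cluster, which held 374 of the 777 thalamus-type nuclei of CNO replicate 2, these means were -0.60, -0.52 and -0.76, and the Gabra4 ratios in thalamus-type nuclei were 0.70 (0.61 to 0.78) and 0.01 (-0.09 to 0.12).

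Gabrg3, Gabrb1 and Gabra3 were lower within most clusters in CNO replicate 1. Gabrg3 was lower in 29 of 30 clusters with a median of -0.29, where 2.85% of genes were as one-sided, against 11 of 19 and a median of -0.08 in CNO replicate 2, where 85.4% were. Gabrb1 was lower in 28 of 30, with a median of -0.19 (4.85% of genes as one-sided), and in 14 of 19 in CNO replicate 2 (44.5%). Gabra3 was lower in 25 of 30, with a median of -0.29 and 16 intervals below 0 (15.2% of genes as one-sided), and in 14 of 19 in CNO replicate 2, with a median of -0.18 (44.5%). The gene medians over clusters were 0.07 and -0.02. In OT-like nuclei (82, 22 and 58) Gabrg3 was at 1092, 781 and 1123 CPM, ratios of -0.48 (-0.64 to -0.33) and 0.04 (-0.08 to 0.16), so that the CNO libraries lay on both sides of the control; with TMM scaling both lay below it, at -0.63 and -0.05. Gabrb1 in these nuclei was at 1476, 1678 and 1367 CPM and also lay on both sides. In other Sim1-lineage nuclei Gabrg3 was at 1428, 1442 and 1440 CPM, within 0.02 of the control on the log2 scale in both libraries on library totals; the mean ratio was -0.10 with TMM scaling and with equal weight for each cluster.

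In the other glial and vascular types some genes passed 1.5-fold in both CNO libraries. In oligodendrocyte progenitor-like nuclei (96, 72 and 91) Gabra3 was lower, at 145, 81.1 and 84.0 CPM, the 1 of 5 genes measured, where 11.4% of genes passed. In committed oligodendrocyte progenitor-like nuclei (23, 11 and 16) Gabrb1 and Gabrg3 were lower, 2 of 5 (20.9% of genes). None of 3 passed in oligodendrocyte-like nuclei (4.89%). Gabra2, Gabra4 and Gabrg3 were higher in microglia-like nuclei (83, 21 and 16), 3 of 4 measured (22.7%), with 2 to 19 UMIs per gene and library. In endothelial-like nuclei (37, 9 and 120) 5 of 6 were lower (21.6%), in ependymal-like nuclei (27, 11 and 36) 3 of 7 (22.3%) and in vascular leptomeningeal-like nuclei (15, 3 and 49) 4 of 6 (32.3%), each with 12 UMIs or fewer per gene in CNO replicate 1.

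**Figure D5:**
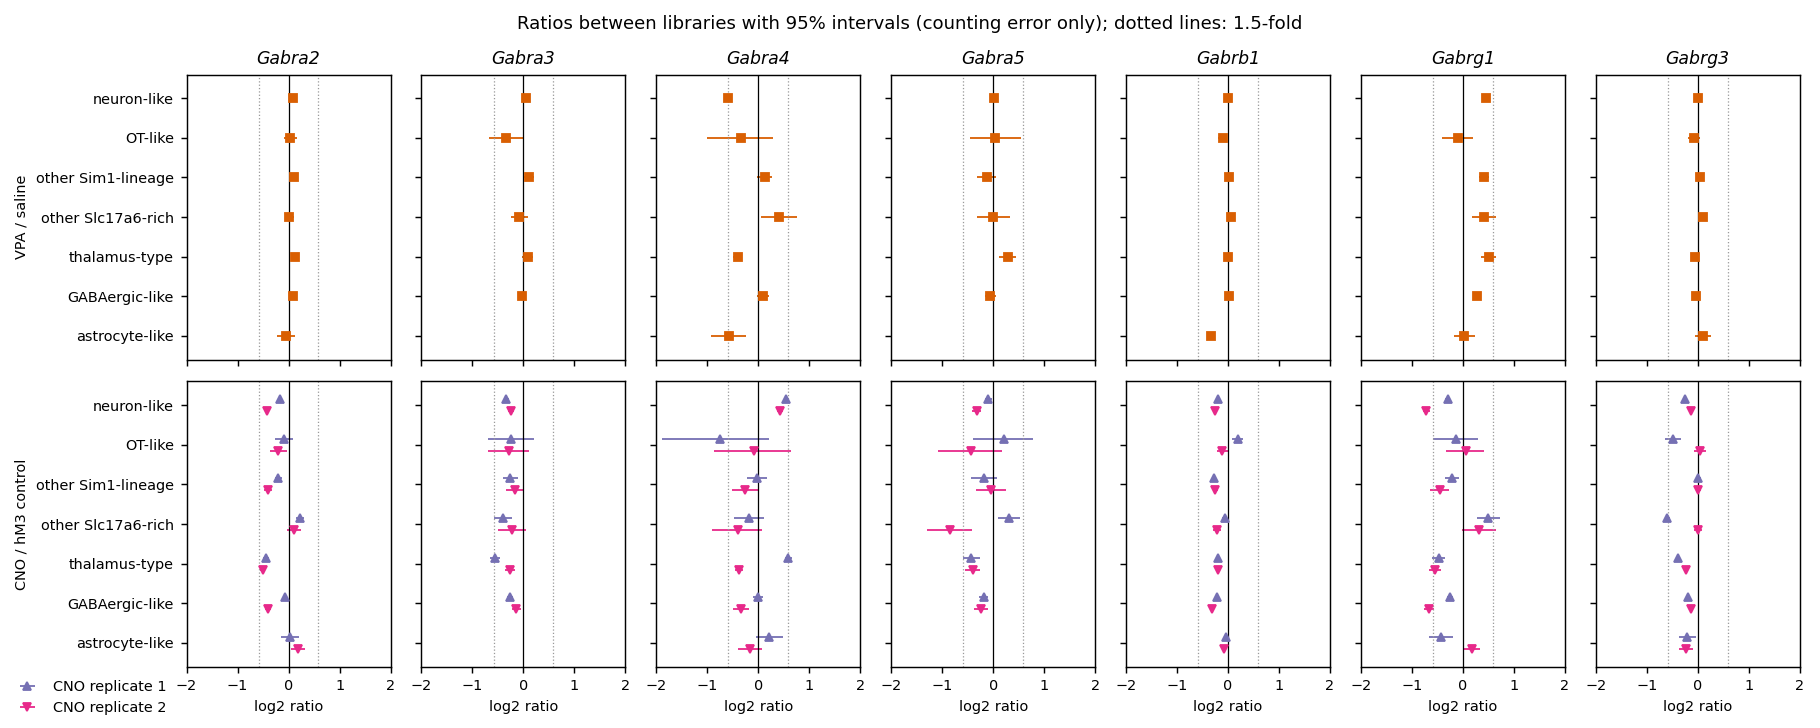
Log2 ratios of VPA to saline (top row) and of each CNO library to the hM3 control (bottom row) for the 7 subunit genes in all neuron-like nuclei, 5 neuron types and astrocyte-like nuclei, with 95% intervals of counting error; genes under 20 CPM in a type are left out. The dotted lines are 1.5-fold. Gabra4 lies at -0.60 in neuron-like nuclei of the VPA library and at 0.59 and -0.37 in thalamus-type nuclei of the CNO libraries.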

How the data were processed

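Single-nucleus RNA libraries were read from the matrices of whole-number UMI counts per gene and nucleus that the authors deposited for each of 5 libraries; the counts were made with Cell Ranger 7.0.1, per the file headers, on mm10, per the submitters' processing notes. Nuclei with under 1000 UMIs (43, 131, 117, 150 and 469 per library) or over 5% mitochondrial UMIs (6 in CNO replicate 1) were left out. Scrublet's own threshold called only 0.00928 to 3.68% doublets, so the highest-scoring nuclei were removed up to an assumed share (271, 949, 217, 169 and 285). That share grows with the number of nuclei left after these filters. The remaining nuclei were clustered with scanpy 1.11.5 on 30 principal components (Leiden, resolution 1, neurons again at 2) without any GABA-A subunit gene, Oxt or Avp, and named from marker lists, since no cell annotation was used here.

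UMIs were summed per library and type. Types were compared with edgeR 4.0.16 (quasi-likelihood, TMM, library as a block), with Benjamini-Hochberg adjustment over all genes. VPA with saline and CNO with hM3 control were compared as ratios of CPM for genes of at least 20 CPM. The exact 95% intervals were conditional binomial for ratios and Poisson for levels, and cover counting error only. A cluster entered a ratio with at least 20 nuclei in both libraries and a cluster level with at least 5. DESeq2 1.42.0, other scalings and filters, thinning depths, left-out clusters and left-out libraries were the alternatives. Nothing says that libraries of 1 arm came from separate litters.

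The 7 genes and the lists (other subunits, partners, GABA synthesis and transport, neurosteroid genes) were chosen with earlier results of these data known. Named are the 7 genes, list members that passed the thresholds, and for each of the 7 the genes most alike over clusters of at least 50 nuclei. Clusters were singled out for their extreme values, and Fat2 and Cbln3 were named after their values were seen. Coordinates are from GENCODE on GRCm38 and promoters from RefSeq on GRCm38.p6. Results for some other genes are not reported here.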

Additional observations from a re-analysis of the deposited data

Results flagged for a closer look

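In the VPA library Gabra4, Gabra3, Gabrb1 and Gabrg3 had nucleus types on opposite sides of 0, each with an interval that left out 0. The share of all genes that do so was not counted. The difference between types was not tested across animals, and the intervals cover counting error only. Gabra4 had the widest span, 0.98 on the log2 scale, between other Slc17a6-rich nuclei (0.41) and astrocyte-like nuclei (-0.57), with thalamus-type nuclei at -0.40; without the 301 nuclei of the Sim1-rich cluster the value in other Slc17a6-rich nuclei was 0.37 (-0.09 to 0.83). Gabra3 spanned 0.45, from 0.11 in other Sim1-lineage nuclei to -0.34 in OT-like nuclei; with equal weight for each neuron cluster the former was -0.02. Gabrb1 spanned 0.40, from 0.06 in other Slc17a6-rich to -0.34 in astrocyte-like nuclei, with OT-like nuclei at -0.11; without the Sim1-rich cluster the first of these was -0.01, and Gabra2 in the same nuclei went from 0.02 to -0.07. Gabrg3 spanned 0.17, from 0.10 in other Slc17a6-rich to -0.06 in thalamus-type nuclei; with equal weight for each neuron cluster the former was -0.13.

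A cluster led by Gabra6, a subunit gene known from cerebellar granule cells, held 120 nuclei of the VPA library, 1 of the saline library and none of the other 3. It entered no comparison. Its median depth was 1712 UMIs. Gabra6 stood at 608.1 CPM (509 to 721) against 0.442 CPM in neuron-like nuclei of the same library, Gabrd at 129 against 1.22 CPM and Gabrb2 at 1124 against 331 CPM. The granule cell genes Fat2 and Cbln3 were at 410 and 73.7 CPM. Of the 7 genes Gabrb1 was at 405 CPM and Gabrg3 at 92.1 CPM, Gabra4 had 1 UMI, and Gabra5 had none, which allows up to 16.99 CPM.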

How the results depend on the processing

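Of the differences between nucleus types for single genes, 415 alternative values kept their direction and side of the threshold, 3 lost the call and 2 changed sign. Gabrb1 in thalamus-type nuclei was -0.0452 on library totals, which was chosen after seeing the data, and Gabrg1 in astrocyte-like nuclei was -0.0202 without CNO replicate 2 and up to 0.25 without another library. In the OT-like comparison 1346 genes were called with no filter on low counts against 816; the subunits called were 0 to 1 when 1 library was left out, and 0 with the set-aside clusters kept, also chosen after seeing the data. Dropping the library block changed no count of subunits called. In VPA against saline the count of genes past 1.5-fold in neuron-like nuclei was 0 in place of 1 with a pseudocount of 10 CPM, with set-aside clusters kept, with equal weight for each neuron cluster (Gabra4 at 0.0645) and as a mean over nuclei. With CNO it was 0 to 1 when 1 CNO library was left out. The share of nuclei with a UMI, 39.2% for Gabra4 in thalamus-type nuclei, was 88.2% without thinning and 23.7% at 1000 UMIs; for Gabrg3 in OT-like nuclei it was 94.9% and 54.6%, and for Gabrg1 in astrocyte-like nuclei 34.5% and 13.7%. No paired analysis was possible because the arms share fewer than 2 replicate numbers. With pooled mice, 1 library in 3 of the arms and 2 in the CNO arm, spread between animals was not measured, and types with few nuclei, OT-like above all, limit the precision.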
